A study of Rattus norvegicus with 3 samples.

Results

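The GABA receptor subunit genes Gabbr1, Gabbr2, Gabra2, Gabra4, Gabrb2, Gabrd and Gabrp were examined in rat kidney. They are 7 of the 26785 genes on the array, and 7 of its 21 genes of GABA-A or GABA-B receptor subunits. A probe belonged to a member when its RefSeq accession was that of the gene and it was not a control spot. This gave 8 probes, each with 1 spot, since Gabbr1 had 2 probes and each other member had 1.

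The study asked how the kidney responds to GABA in drinking water. Total RNA came from the kidney of male Sprague-Dawley rats, 5 weeks old at purchase, of no stated genetic change, from a part of the kidney that the labels call non-tumor. The G200 group drank water with 200 ppm GABA for 3 weeks after 1 week of adaptation, and the control group received no GABA. On each of 3 Agilent arrays with 2 colours, control RNA was labelled with Cy3 (green) and G200 RNA with Cy5 (red). There was no dye swap (0 arrays), and dye and treatment cannot be told apart in any ratio. All arrays came from 1 slide and 1 scan.

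GABA acts on a pair of receptor types. GABA-A receptors are pentameric chloride channels with subunits drawn from the alpha, beta, gamma, delta, epsilon, theta, pi and rho families, and GABA-B receptors are G protein-coupled receptors made of Gabbr1, which binds GABA, and Gabbr2, which couples to the G protein. Both types are best known from neurons, and subunits of both have been described in kidney tubules.

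The kidney identity of the RNA was checked on marker genes. All 8 markers of the proximal tubule, all 5 of the thick ascending limb and all 6 of the collecting duct's principal cells were well above background in both colours on the 3 arrays. Of the distal convoluted tubule markers, Slc12a3 was tested, Pvalb and Trpv5 were not well above background on any array, and Trpm6 had no probe. Of 14 liver markers 13 met the same mark, so the check does not show that kidney was the only tissue. Across the 14188 genes tested, the log2 ratios of pairs of arrays correlated at 0.778, 0.827 and 0.904. Squared differences between the green channels of pairs of arrays were 0.657 to 3.04 times those that the noise between replicate spots gives, and for the red channels 13.9 to 37.6 times. The sample titles number a rat for each array, without saying whether that covers the control. No source says that each array held a separate control rat, so the control was treated as 1 sample. The test of a ratio then leaves out the spread of the control. Its p-values measure only the spread between these samples, which may be technical in part. In bulk RNA, fewer cells of a type and less RNA per cell cannot be told apart.

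Most subunits were not well above background, by the mark that Agilent's software sets for each spot. Of the 21 receptor genes, 5 were well above background on at least 1 array in at least 1 colour, here called detected. These were the members Gabbr1, Gabbr2 and Gabrd and the other subunits Gabrq and Gabra5. Gabra5 reached the mark on 1 array in 1 colour. The share of all genes that reached this looser mark was not counted. The 4 other members were not well above background on any array in either colour. A gene was tested when a probe reached that mark in a single colour on each of the 3 arrays. That held for 53.0% of all genes on the array, for 2 of the 7 members (Gabbr1 and Gabbr2) and for 1 of the other 14 subunits (Gabrq).

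**Figure D1:**
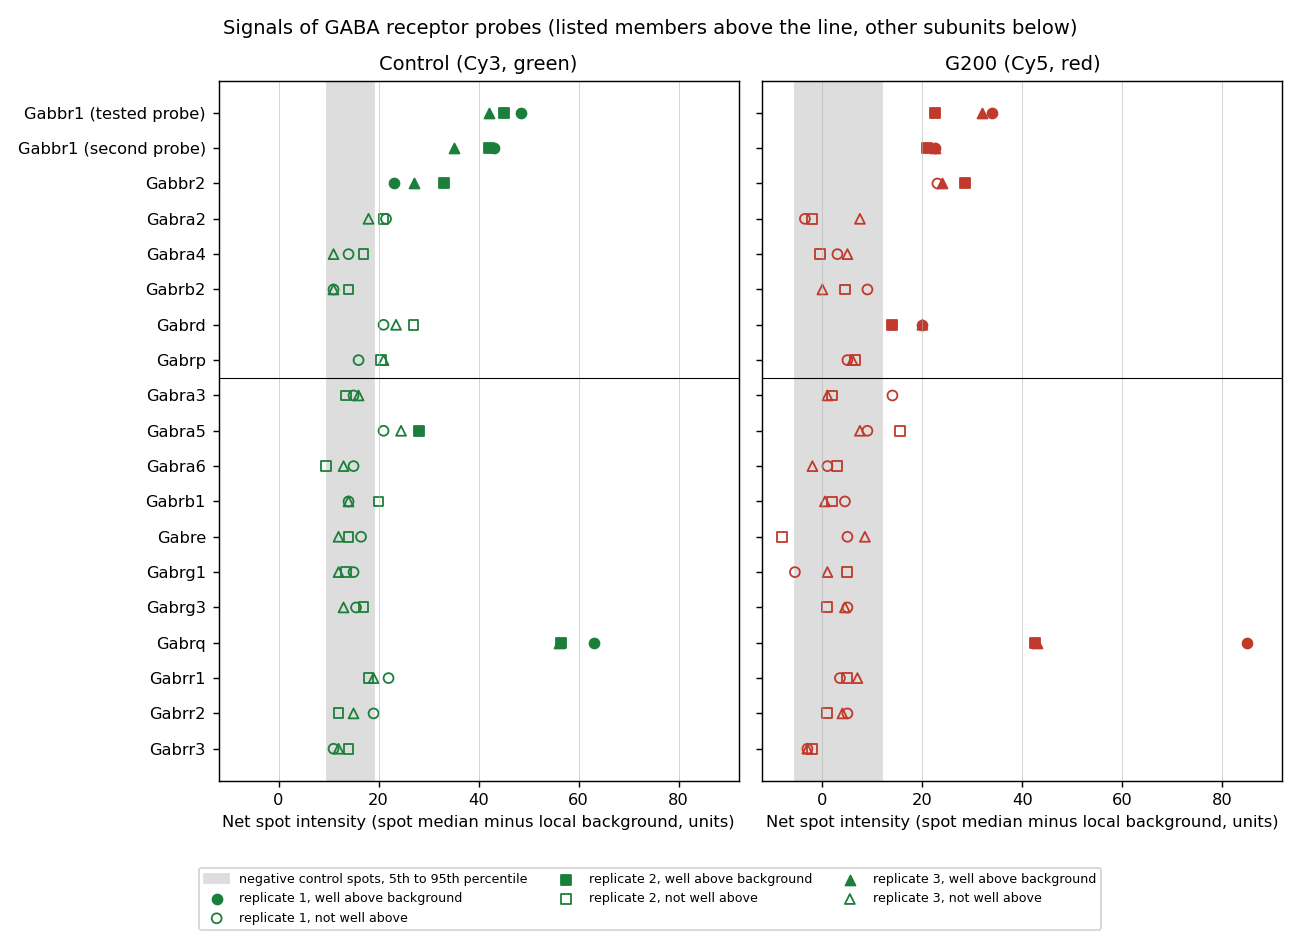
Net spot intensity (spot median minus local background, in intensity units) of GABA receptor probes in the control (left) and in G200 (right), with the 3 arrays as symbols and a grey band for the 5th to 95th percentiles of 153 negative control spots. Symbols filled for spots well above background belong to Gabbr1, Gabbr2, Gabrd, Gabra5 and Gabrq, and intensities of different probes are not on a common scale.

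Promoter sequences are shown because detection divided the family, and the sequence before a gene is a feature that the arrays did not measure. RefSeq's promoter table of the GRCr8 assembly held 16 of the 21 receptor genes, among them 5 members (Gabbr1, Gabbr2, Gabra4, Gabrb2 and Gabrd). The 250 bases before the start of the gene are printed for both GABA-B subunits and, for contrast, for the undetected Gabrb2. Capitals mark matches to the GC box GGGCGG on either strand.
Gabbr1 (GRCr8 chr20:1499237-1499486, minus strand): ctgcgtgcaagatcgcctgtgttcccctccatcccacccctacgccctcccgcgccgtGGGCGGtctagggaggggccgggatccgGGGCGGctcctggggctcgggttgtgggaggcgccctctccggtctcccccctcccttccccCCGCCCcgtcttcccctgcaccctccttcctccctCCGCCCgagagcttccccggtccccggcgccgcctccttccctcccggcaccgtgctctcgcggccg
Gabbr2 (GRCr8 chr5:66083696-66083945, minus strand): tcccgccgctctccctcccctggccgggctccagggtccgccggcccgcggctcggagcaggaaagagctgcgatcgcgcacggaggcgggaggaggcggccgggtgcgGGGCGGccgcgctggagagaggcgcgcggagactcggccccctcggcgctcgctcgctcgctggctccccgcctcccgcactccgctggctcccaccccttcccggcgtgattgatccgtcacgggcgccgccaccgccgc
Gabrb2 (GRCr8 chr10:27439543-27439792, plus strand): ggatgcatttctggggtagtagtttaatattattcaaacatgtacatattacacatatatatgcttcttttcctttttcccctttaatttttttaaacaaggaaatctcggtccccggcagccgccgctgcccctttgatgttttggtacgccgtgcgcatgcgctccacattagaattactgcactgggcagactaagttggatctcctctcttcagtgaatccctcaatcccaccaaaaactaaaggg
The Gabbr1 window held 4 GC boxes, that of Gabbr2 held 1 and that of Gabrb2 none (0), and of the other members in the table Gabrd, detected, held 4 and Gabra4, undetected, held 1. Over all 33469 promoters of the table, 30.5% of the 250-base windows held a GC box. Their median G+C content was 51.2%, against 75.6% for Gabbr1, 78.8% for Gabbr2, 74.0% for Gabrd, 71.6% for Gabra4 and 43.2% for Gabrb2. Gabrb2 does not stand for all undetected receptor genes, since the 11 of them in the table ran from 38% to 78%. With 16 of the 21 receptor genes in the table, too few had a promoter for a comparison of detected and undetected genes, which is void and not given.

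The subunit genes also differ in their place. In RefSeq's order of protein-coding genes in GRCr8, 16 of the 21 receptor genes lie in 5 clusters, in which at most 1 other gene separates neighbours. Gabra4 and Gabra2 share a cluster with Gabrb1 and Gabrg1, and none of these 4 genes was detected. Of the 5 receptor genes outside the clusters, 3 were detected, and they are the members Gabbr1, Gabbr2 and Gabrd. Within the clusters 2 of 16 were detected, Gabrq and Gabra5. These counts, like the promoter features, describe a small family and carry no test.

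Gabbr1 encodes the GABA-binding subunit of the GABA-B receptor and was the member that fell in G200 after loess normalization, a direction that turned with no normalization between the dyes. Its brightest probe had a net intensity of 48.5, 45 and 42 units in the control on replicates 1, 2 and 3. In G200 the net intensity was 34, 22.5 and 32 units. No negative control spot (0 of 153) reached these values on any array in either colour, and both colours were well above background on all 3 arrays. The raw colours differ in scale, so the direction was read from the normalized ratio. The log2 ratio of G200 over control was -0.52, -0.29 and -0.26 on replicates 1, 2 and 3. All 3 arrays lay below 0, replicate 1 furthest. The mean was -0.36 ± 0.14 (n = 3, SD; standard error 0.0779; limma, adjusted p = 0.0162), 1.28-fold lower in G200, with a 95% interval of -0.55 to -0.17. The second Gabbr1 probe gave -0.50, -0.26 and -0.21, with a mean of -0.32 ± 0.15 (n = 3, SD). Both probes target 1 transcript, so they are no independent samples.

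The fall of Gabbr1 is read against the background of the arrays. After Benjamini-Hochberg adjustment, limma called 26.0% of the 14188 genes lower in G200 and 11.5% higher. Of the 2 members tested 1 was called lower and 0 higher, and 0 of the 2 met the study's criterion of a 2-fold change with an unadjusted p under 0.05, which 4.06% of all genes met. A call of this kind in 1 of 2 members is not set apart from that background. The median log2 ratio of all genes tested was -0.05. The processed ratio of the negative control spots had a median of 0.072, and the means of 144 such spots with a value on all arrays lay between -0.17 and 0.25, above both Gabbr1 probes.

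The size and the call of the Gabbr1 result depended on the processing. Its mean log2 ratio was -0.83 with an offset of 0 in the background correction, where the means of negative control spots ran from -2.32 to 2.75. It was -1.21 by the Feature Extraction ratio of the files, which differs in both background correction and dye normalization, and Gabbr1 then met the study's 2-fold criterion (limma, unadjusted p = 0.000846). The offset of 50 units, added to both colours, pulls ratios of dim spots towards 0. When arrays were centred on their medians and loess was left out (median centring), the mean was -0.32 (limma, adjusted p = 0.0666), and the negative control spots then had a median of -0.20. With no normalization between the dyes the sign turned and the mean was 0.034 (second probe -0.0012), while the median of all genes moved to 0.62. Without replicate 1 the adjusted p was 0.0575 and without replicate 3 it was 0.0776, both from limma. The methods' t-test gave adjusted values of 0.156 on the ratios and 0.0888 on the channels, and unadjusted values of 0.0476 and 0.00966, under 0.05. The form on the channels counts the green channel of each array as a separate control, which no source states. Over all 16 alternatives the adjusted p ran from 0.00674 to 0.884.

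Gabbr2 encodes the partner subunit that carries Gabbr1 to the cell surface and couples to the G protein. Its net intensity was 23, 33 and 27 units in the control, well above background on all 3 arrays. In G200 it was 23, 28.5 and 24 units, well above background on 2 of the 3 arrays and not on replicate 1. The log2 ratio was 0.060, 0.044 and 0.0081 on replicates 1, 2 and 3. The 3 arrays lay close together and just above 0, and the mean of 0.037 ± 0.027 (n = 3, SD; limma, adjusted p = 0.667) did not pass the threshold. Its 95% interval ran from -0.12 to 0.19. The sign was not stable, at -0.032 with no background correction, -0.065 with median centring and -0.22 by the Feature Extraction ratio, against 0.12 with an offset of 0 and 0.29 if the dyes were not normalized. In the Feature Extraction ratio replicate 1 stood at -1.09 and replicates 2 and 3 at 0.36 and 0.063.

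The GABA-B subunits were compared with each other on the same arrays. The log2 ratio of Gabbr2 exceeded that of Gabbr1 by 0.58, 0.33 and 0.27 on replicates 1, 2 and 3, a mean difference of 0.39 ± 0.16 (n = 3, SD). On replicate 1, with the largest difference, Gabbr2 was not well above background in G200, so that value is not exact. The difference had the same sign on all 3 arrays. Its mean was 0.95 with an offset of 0, 0.98 by the Feature Extraction ratio and 0.26 with median centring, above 0 on all 3 arrays each time. The 5th to 95th percentiles of the means of negative control spots ran from -0.69 to 1.32 with an offset of 0. They ran from 0 to 0.18 by the Feature Extraction ratio and from -0.34 to -0.083 with median centring. Differences between such spots were not computed. An exact two-sided sign-flip permutation test gave p = 0.25, the smallest value that this test can give with 3 arrays, so it could not have passed a threshold of 0.05.

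Gabrd encodes the delta subunit of GABA-A receptors outside the synapse. In the control its net intensity was 21, 27 and 23.5 units, not well above background on any array. In G200 it was 20, 14 and 20 units and well above background on replicates 1 and 2. On replicate 2, 1 of 153 negative control spots reached the G200 value. Gabrd was not tested. Its log2 ratio was 0.093, -0.051 and 0.055, with a mean of 0.032 ± 0.074 (n = 3, SD), and the arrays fell on both sides of 0. By the Feature Extraction ratio all 3 arrays lay above 0, at 0.94, 0.61 and 0.19. The control was not well above background, and no fold is given.

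The members Gabra2 and Gabra4 encode alpha subunits, Gabrb2 a beta subunit and Gabrp the pi subunit, which is known mainly from tissues outside the brain. None of these 4 genes was well above background on any array in either colour. Their net intensity was 11 to 21.5 units in the control and -3.5 to 9 units in G200, against 95th percentiles of the negative control spots of 17.7 to 19 units in green and 10 to 12 units in red. Gabra2 had 21.5, 21 and 18 units in green, above those percentiles on all 3 arrays, and its red values of -3.5, -2 and 7.5 units lay among the negative control spots. The log2 ratios had means of -0.15 for Gabra2, 0.074 for Gabra4, 0.17 for Gabrb2 and -0.027 for Gabrp. In green, Gabrp had 16, 20.5 and 21 units, and no negative control spot (0 of 153) reached it on replicates 2 and 3. With neither colour well above background these values carry no fold. Without the filter on dim probes all 7 members were tested and limma called Gabbr1 alone (adjusted p = 0.0126). The adjusted p of Gabra2, Gabra4, Gabrb2, Gabrd and Gabrp lay between 0.104 and 0.801 in that fit.

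**Figure D2:**
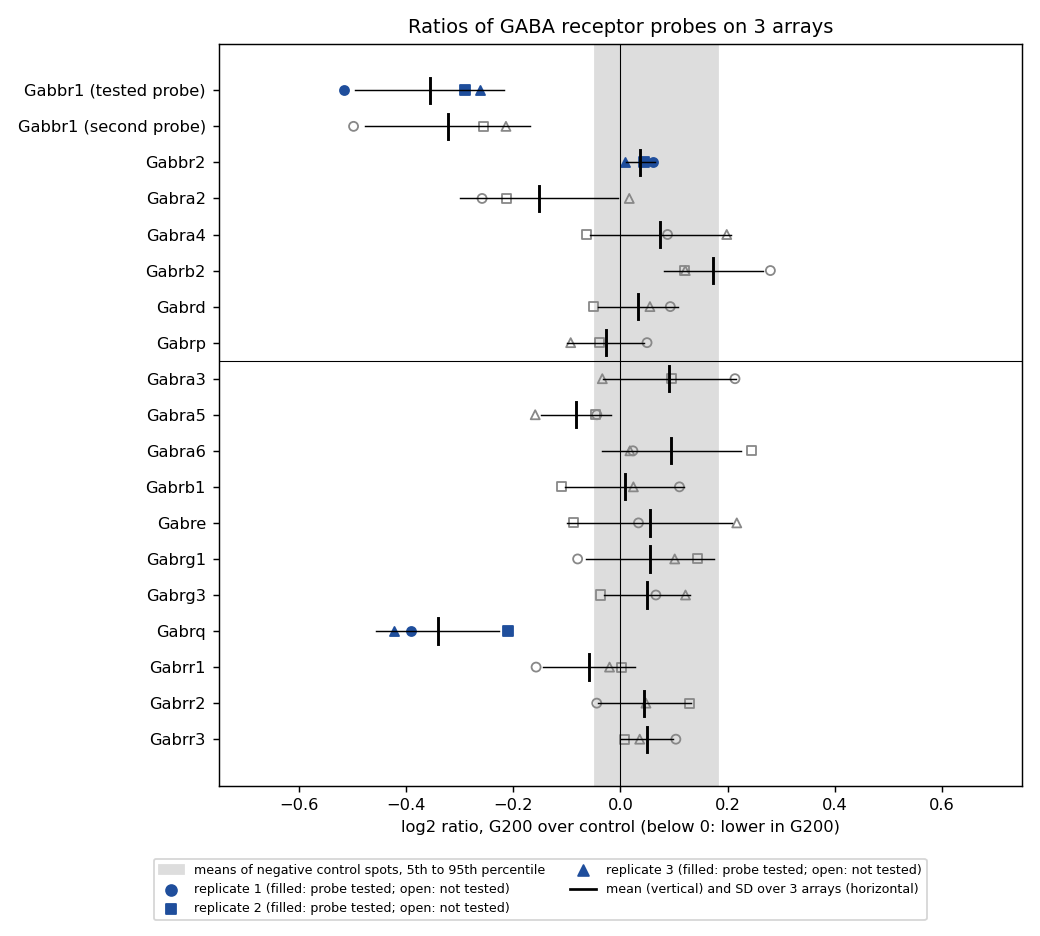
log2 ratio of G200 over control for GABA receptor probes on 3 arrays (symbols, filled for probes tested), with the mean, the SD and a grey band for the 5th to 95th percentiles of the means of negative control spots. Gabbr1 (means -0.36 and -0.32) and Gabrq (-0.34) lie left of the band, as do Gabra2, Gabra5 and Gabrr1, which were not tested, and Gabbr2 (0.037) lies within it, while the means of Gabrq and of the tested Gabbr1 probe were positive if the dyes were not normalized.

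Among the 14 other receptor subunits, Gabrq (theta) was the gene tested. Its net intensity was 63, 56.5 and 56 units in the control and 85, 42.5 and 43 units in G200, well above background on all arrays in both colours. Its log2 ratio was -0.39, -0.21 and -0.42, lower on all 3 arrays, and averaged -0.34 ± 0.11 (n = 3, SD; limma, adjusted p = 0.0154). Median centring gave -0.16 (limma, adjusted p = 0.295), no normalization between the dyes turned it to 0.20, the offset of 0 gave -0.65 and the Feature Extraction ratio -0.73. Without replicate 3 the mean was -0.30 and the adjusted p 0.125 (limma). Gabra5 was well above background in the control on 1 array and in G200 on none. Its mean log2 ratio was -0.083 ± 0.066 (n = 3, SD), and it was not tested. The Feature Extraction ratio gave -2.00, -2.01 and -1.98, with G200 not well above background. Gabra3, Gabra6, Gabrb1, Gabre, Gabrg1, Gabrg3, Gabrr1, Gabrr2 and Gabrr3 were not well above background on any array in either colour.

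**Figure D3:**
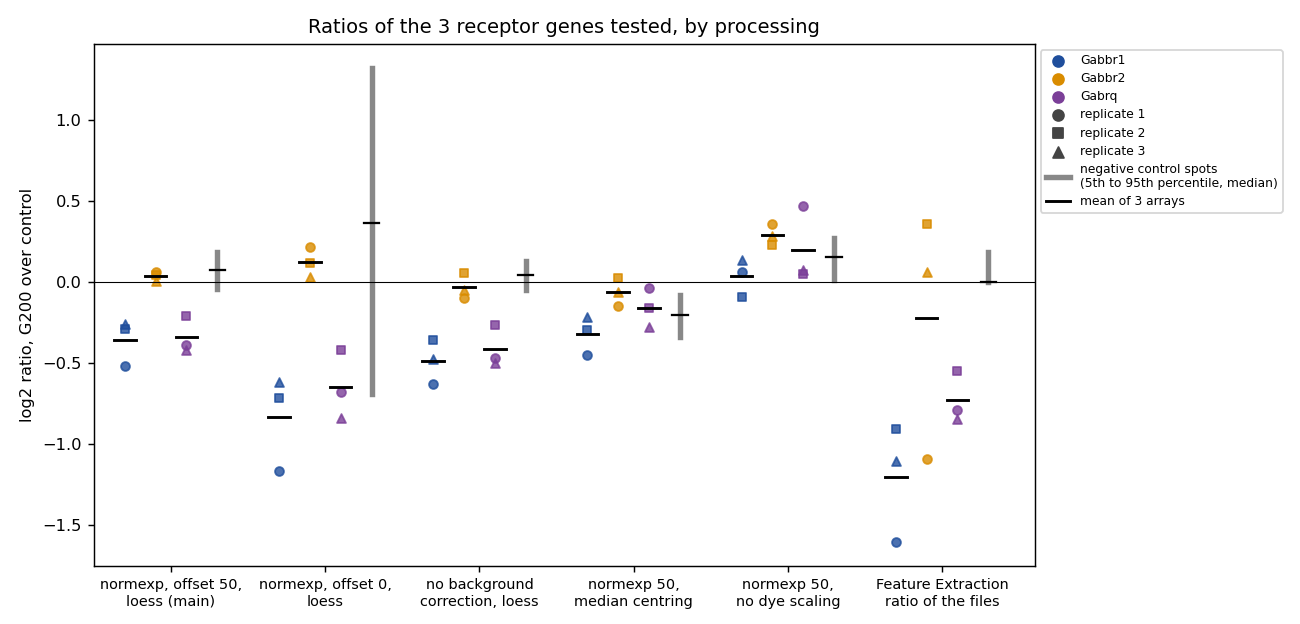
log2 ratio of G200 over control for Gabbr1, Gabbr2 and Gabrq under 6 ways of processing, with the 3 arrays as symbols, the mean as a line and grey bars for the 5th to 95th percentiles of the means of negative control spots. The mean of Gabbr1 runs from -1.21 to 0.034 and lies within the grey bars with median centring and without dye normalization.

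The genes with ratios most like those of the tested members were found by Euclidean distance over the 3 log2 ratios among genes with a symbol. For Gabbr1 they were Asb18, at -0.51, -0.29 and -0.28, and Pfdn2, at -0.53, -0.29 and -0.24. For Gabbr2 they were Slirp, at 0.064, 0.045 and 0.014, and Ash2l, at 0.068, 0.041 and 0.00081. Such likeness was common, since 53 genes lay within 0.1 of Gabbr1 and 368 within 0.1 of Gabbr2.

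Genes for proteins that assemble, move or anchor GABA-A receptors were mostly above background. Of 20 listed genes 16 were tested, 1 was higher, 4 were lower and 11 did not pass the threshold, with a median log2 ratio of -0.013 against -0.05 for all genes tested, of which 11.5% were higher and 26.0% lower. The number called was 9 with median centring (6225 of all 14188 genes) and 14 if the dyes were not normalized (8315). It was 3 with an offset of 0 (4984) and 2 by Feature Extraction ratios (5326). Both forms of the methods' t-test called 0, beside 2 of all genes on the ratios and 379 on the channels. Trak1, a kinesin adaptor, fell with a log2 ratio of -0.51 ± 0.22 (n = 3, SD; limma, adjusted p = 0.0103). Gabarapl1, a relative of the GABA-A receptor-associated protein with a known role in autophagy, fell by 0.43 (0.23 as the mean over its probes) and Clptm1, which retains subunits in the endoplasmic reticulum, by 0.38. Rdx, the radixin that anchors GABA-A receptors containing the alpha5 subunit, rose by 0.23 (limma, adjusted p = 0.0468), and by 0.88 with median centring and 1.23 if the dyes were not normalized. The falls of Trak1, Gabarapl1 and Clptm1 turned to positive values with median centring (0.15, 0.38 and 0.38), as they did if the dyes were not normalized (0.50, 0.74 and 0.73). Of these values limma called Clptm1 higher under both settings (adjusted p = 0.0434 and 0.0156) and Gabarapl1 higher under the latter (adjusted p = 0.0279). Without replicate 3 limma called 0 genes of the list, beside 1583 of all 14188. The adjusted p from limma was then 0.0863 for Trak1, 0.0515 for Gabarapl1, 0.127 for Clptm1 and 0.252 for Rdx. Without replicate 1 limma called 2, beside 3542 of all genes, with 0.0793 for Clptm1 and 0.160 for Rdx. Rdx lost its call under 8 of 16 alternatives.

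Of the 18 genes of GABA-B partners and effectors, 8 were tested, 0 were higher and 2 were lower (all genes 11.5% and 26.0%), with a median of 0.013. If the dyes were not normalized, 5 were called, beside 8315 of all 14188 genes. With the methods' t-test 0 were called, beside 2 of all genes on the ratios and 379 on the channels. Where both colours had to be well above background 1 was called, beside 4352 of the 12498 genes tested then. Gnai2, an inhibitory G protein alpha subunit through which GABA-B receptors signal, fell with a log2 ratio of -0.44 ± 0.057 (n = 3, SD; limma, adjusted p = 0.00484). Its sign turned with median centring, to 0.33, and if the dyes were not normalized it was called higher (0.69; limma, adjusted p = 0.0291). Kcnj9, a subunit of G protein-gated potassium channels, fell by 0.39. The fall was 0.94 with an offset of 0, and 1.13 by the Feature Extraction ratio (limma, adjusted p = 0.0674). Kcnj9 was well above background in the control on all 3 arrays and in G200 on 2. It was therefore tested through the control alone, a choice that favours a fall. Its adjusted p was 0.0559 without replicate 1, 0.0801 without replicate 3 and 0.118 with median centring (limma). With no normalization between the dyes the fall of Kcnj9 was gone, at a log2 ratio of 0.0032 (limma, adjusted p = 0.990). The partner subunits Kctd8 and Kctd16 and the channel genes Kcnj3 and Kcnj6 were not well above background on any array, and Kctd12 had no probe.

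Chloride cotransporters and their kinases, which set the chloride gradient that GABA-A receptors act on, showed 0 of 9 tested genes past the adjusted threshold in limma and 4 at an unadjusted p under 0.05, beside 5321 and 6961 of all 14188. Their median log2 ratio was 0.043. The neuronal cotransporter Slc12a5 was not well above background on any array. With median centring 5 of the 9 genes passed, beside 6225 of all 14188, and with no normalization between the dyes all 9 did, beside 8315. Without replicate 2 it was 2, beside 4978 of all genes. With Feature Extraction ratios, no background correction, outlier spots kept, the robust variance model or separate channels 1 passed, beside 4109 to 5636.

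Of 15 genes of GABA synthesis, breakdown and transport, 10 were tested, 2 were higher and 2 were lower (all genes 11.5% and 26.0%), with a median of -0.087. Where both colours had to be well above background 2 were called, beside 4352 of the 12498 genes tested then. With the methods' t-test 0 were called, beside 2 of all genes on the ratios and 379 on the channels. Glul (glutamine synthetase) rose with a log2 ratio of 0.45 ± 0.15 (n = 3, SD; limma, adjusted p = 0.0089) and Glud1 (glutamate dehydrogenase) by 0.22 (limma, adjusted p = 0.0468), a call lost under 10 of 16 alternatives. With median centring these rises were 1.10 and 1.00, and 1.45 and 1.36 if the dyes were not normalized. Abat, the transaminase that breaks down GABA, fell with a log2 ratio of -0.34 ± 0.057 (n = 3, SD; limma, adjusted p = 0.0113) and stood at 0.0063 with median centring. Slc32a1, the vesicular GABA transporter, was well above background in the control on all arrays and in G200 on none. It was therefore tested through the control alone, a choice that favours a fall. Its log2 ratio was -0.30 (limma, adjusted p = 0.0152, a test of this ratio and not of the bound that follows). As a bound, Slc32a1 was at least 1.20-fold lower in G200. For this bound G200 entered at its own normalized signal or, if that was lower, at the lowest signal that any probe well above background had on that array, and the bound is open to dye bias. With no normalization between the dyes its log2 ratio was -0.076 (limma, adjusted p = 0.737). Without replicate 3 limma called 0 genes of this list, beside 1583 of all 14188. The adjusted p from limma was then 0.0680 for Glul, 0.0941 for Abat and 0.162 for Glud1. Without replicate 1 the value was 0.117 for Glud1 and 0.0531 for Slc32a1, and without replicate 2 it was 0.119 for Glud1. The synthesis enzymes Gad1 and Gad2 were not well above background on any array.

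**Figure D4:**
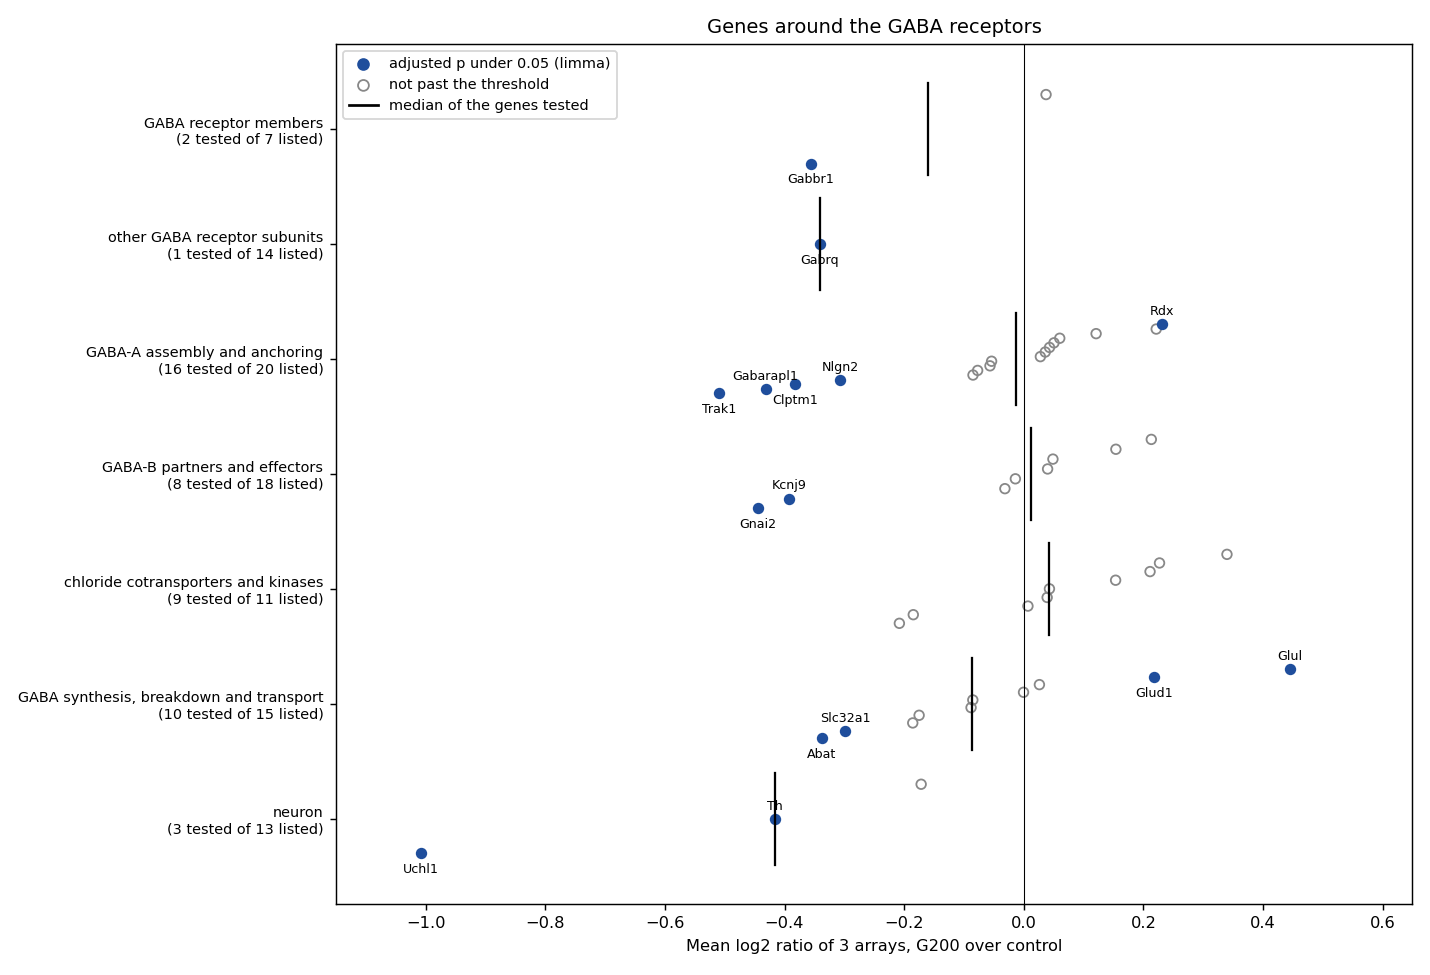
Mean log2 ratio of G200 over control of the tested genes in each list around the GABA receptors, filled and named where the adjusted p from limma was under 0.05, with list medians as vertical lines. Of the receptor genes Gabbr1 and Gabrq passed, and the signs of Trak1, Gabarapl1, Clptm1, Gnai2 and Abat turned with median centring.

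Liver markers were lower in G200 as well after loess normalization, as were 2 neuron markers and 1 adrenal marker. Of all genes tested 26.0% were lower. Of 13 neuron markers 11 had a probe and 3 were tested, and 2 of these were lower, Uchl1 with -1.51, -0.89 and -0.63 and Th with -0.57, -0.20 and -0.48 on replicates 1, 2 and 3, while Prph did not pass the threshold (limma, adjusted p = 0.139). Both calls were lost with median centring, at -0.45 for Uchl1 and -0.15 for Th, and if the dyes were not normalized, at -0.091 and 0.21, and that of Th without replicate 3 (limma, adjusted p = 0.111). The summed normalized intensity of the 3 tested markers was 707, 723 and 728 in the control and 342, 473 and 494 in G200, with Uchl1 the brightest. The neuron markers Chga, Dbh, Elavl4, Stmn2 and Syt1 were not well above background on any array. Of 14 liver markers 13 were tested and all 13 were lower, with medians of -1.59, -3.14 and -4.40 on replicates 1, 2 and 3. Their summed intensity was 176180, 206273 and 216528 in the control and 51614, 20847 and 7919 in G200, with Tf the brightest and Tat not well above background on any array. Replicate 1 had the lowest ratios of Gabbr1, Uchl1 and Th and the highest median of the liver markers. The ratios of Gabrq (-0.39, -0.21 and -0.42) and Prph (-0.19, -0.012 and -0.32) were lowest on replicate 3, as was that median. Whether these are related was not tested. Alb, Apoc1, Fabp1 and Ttr had mean ratios of -3.82, -4.05, -3.80 and -3.72, and with limma's robust variance model their adjusted p was 0.0801, 0.0636, 0.0613 and 0.0847. Of the 6 adrenal markers 2 were tested and 1, Cyp21a1, was lower (-0.43; named after its value was seen), Hsd3b1 did not pass (0.16; limma, adjusted p = 0.114), and Cyp11b1, Cyp11b2 and Star were not well above background on any array. The part of these tissues in the ratios of Gabbr1 and Gabrq was not tested.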

How the data were processed

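Kidney RNA of control (Cy3) and G200 (Cy5) rats was measured on 3 Agilent arrays from 1 slide and 1 scan. In the deposited tables the intensity columns used are uncorrected medians of spot and local background, as scanned by the authors. The deposited log10 ratios of red over green were made by the authors with Feature Extraction, by background subtraction and dye normalization, and equal 0 at 6882, 7803 and 6542 spots on the 3 arrays. The labels name Feature Extraction version 9.3.2.1 and the file headers 11.5.1.1. Labels and methods name different labelling kits.

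From the deposited intensities, limma 3.58.1 in R 4.3.3 corrected the background (normexp on all 44254 spots, offset 50) and normalized the dyes by loess within arrays. Control spots (1224 positive, 153 negative) and outlier spots (635, 736 and 945) were left out and spots of a probe averaged. Of 30367 probes 18355 (60.4%) matched a symbol through their accession in RefSeq's GRCr8 table. The array was designed on rn4, so no probe coordinates are given. Kept were probes that were well above background in a single colour on each array (15656), and the brightest stood for its gene (14188 genes, 8917 with a symbol). Between 56.6% and 63.0% of spots were well above background per array and colour, none (0) was saturated, and the number of arrays and signals near background limit the precision.

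Each mean log2 ratio was tested against 0 by lmFit and eBayes (two-sided), and p-values were adjusted by Benjamini-Hochberg across all genes. This called 5321 genes at an adjusted p under 0.05, 30.6% of them higher, against 79.6% with median centring and 96.3% with no normalization between the dyes. Arrays pair control and G200 by hybridization. Nothing says that each array held a separate control rat, and the fit does not settle this. The control was counted as 1 sample, and on that reading the p-values hold no spread between control rats. The steps were tested on simulated data, and recovery depended on the spread assumed. With the raw spread of each gene the limit set for recovery was not met, and the moderated spread of limma, taken up after that, met it.

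Named genes were the members, the other receptor subunits, the largest rises and falls past the threshold in each pathway list (3 each way), up to 4 called neuron and liver markers, and the 2 genes nearest each tested member. Results of 3 genes are not reported here, though the counts given include them. Kidney and adrenal marker lists were also used. Of the further kidney lists, the numbers of genes higher and lower were 4 and 1 of 8 for proximal tubule, 2 and 0 of 5 for thick ascending limb, 0 and 0 of 1 for distal convoluted tubule, 0 and 0 of 6 for principal cells, 1 and 1 of 4 for intercalated cells, 1 and 0 of 6 for podocyte, 0 and 1 of 5 for endothelium, 2 and 0 of 6 for stroma and 0 and 0 of 4 for macrophage. Of all genes tested 11.5% were higher and 26.0% lower. At an unadjusted p under 0.05 limma gave 0, 3 and 1 for distal convoluted tubule, principal cells and macrophage, beside 6961 of all 14188 genes. Members and lists were chosen with earlier results of these data known. Sequences were read with Python 3.11.15 and pandas 2.3.3. The negative control ratios, promoters and gene order were added after the data were seen. The alternatives covered the background correction, dye normalization, filter, probe choice, outlier spots, variance model, array pairing, the methods' t-test and leaving out each replicate.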

Additional observations from a re-analysis of the deposited data

How the results depend on the processing

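Signals near background, the scaling between the dyes and the number of arrays limit these results. Gabbr1 was called lower under 10 of 16 alternatives, lost the call under 5 and turned under 1, with adjusted p from 0.00674 to 0.884. Gabrq did so under 11, 4 and 1, and Gabbr2 kept its sign under 12 of 15. The number of members called at an adjusted p was 0 with median centring, with no normalization between the dyes and with both forms of the methods' t-test (Gabbr1 had an unadjusted p of 0.0476 and 0.00966 there), and 0 to 1 when a replicate was left out (1 without replicate 2, 0 without replicates 1 or 3). All genes called numbered 6225 with median centring, 8315 with no normalization between the dyes and 1583 to 4978 when a replicate was left out. With the methods' t-test they numbered 2 on the 3 log2 ratios and 379 on the 2 channels. The 2-fold criterion gave 576 genes, but 1023 with median centring, 1319 with an offset of 0, 1933 with Feature Extraction ratios and 3207 with no normalization between the dyes. At an unadjusted p, 6961 genes became 4209 and 4472 with the t-test on the channels and the ratios, and 4567 without replicate 3. Over the named genes, 223 values were counted as unchanged, 79 lost the call and 17 turned. The 223 include 1 value for each untested subunit, from the fit without the filter on dim probes. Those repeat the same ratio and had no call to keep. The t-test has fewer degrees of freedom, and the cause of the other changes was not tested.

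With no normalization between the dyes the log2 ratio turned for Gabbr1 (0.034), Gabrq (0.20), Trak1 (0.50), Gabarapl1 (0.74), Clptm1 (0.73), Gnai2 (0.69), Kcnj9 (0.0032), Abat (0.36) and Th (0.21), and the all-gene median went from -0.05 to 0.62. With median centring that median was 0.27, and the ratio turned for Gabbr2 (-0.065), Trak1 (0.15), Gabarapl1 (0.38), Clptm1 (0.38), Gnai2 (0.33) and Abat (0.0063). Gabbr2 also turned with no background correction (-0.032) and by the Feature Extraction ratio (-0.22). The cause was not tested.

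Separate channels with no replicate block, in which the pairing by array is dropped, called 4109 genes and 1 member, Gabbr1 (adjusted p = 0.0121 from limma). The same fit ended the calls of Rdx, Kcnj9 and Glud1 (adjusted p = 0.274, 0.179 and 0.116 from limma). It counts the green channel of each array as a separate control, which no source states. Its adjusted p-values, that of Gabbr1 included, hold only if each array held a separate control rat. The counts over the alternatives include this fit. The slide could not be a block, since all arrays share it. Gabbr2 and Kcnj9 have no value where both colours had to be well above background, nor has Slc32a1.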
